A study of Mus musculus with 19 samples.

Results

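The genes described here are 10 regulators of the passage from G1 into S phase: the D cyclin genes Ccnd1, Ccnd2 and Ccnd3, the kinase genes Cdk4 and Cdk6 that D cyclins activate, the E cyclin genes Ccne1 and Ccne2, their kinase gene Cdk2, the phosphatase gene Cdc25a and the inhibitor gene Cdkn1b. They were chosen by symbol from a fixed list, and all 10 were found among the 22419 genes with a level in the data and among the 12462 genes that were tested. Preleptotene cells, the germ cells that carry out the last DNA replication before meiotic prophase, were sorted from mouse testes, and their poly(A) RNA was sequenced as 7 libraries. All mice were on a C57BL/6 background, which by the study was nearly complete in the mice used for ChIP-seq. They were treated with an inhibitor of retinoic acid synthesis from postnatal day 2 to day 8, were injected with retinoic acid on day 9, and were taken 6.75 days later, so that spermatogenesis was synchronized. The Stra8-deficient group (Stra8-/-, 3 libraries) lacks the retinoic acid-responsive gene Stra8, whose product is required for meiotic initiation. The low-STRA8 and high-STRA8 groups (2 libraries each) came from Stra8+/- mice, and were told apart by how strongly a biopsy of the synchronized testis stained for STRA8 protein. The study places low-STRA8 cells early in the preleptotene stage, before meiotic initiation, and high-STRA8 cells in its middle or late part, after initiation. STRA8 level and stage can therefore not be told apart between these 2 groups, and the Stra8-deficient group also differs in genotype. Mice of the 3 groups also carried Ddx4-Cre, which is active in the germ line, and 1 copy of Rosa26-tdTomato, the reporter used for sorting. FLAG ChIP-seq for STRA8 was carried out on whole testes on the same schedule, from 3 Stra8 FLAG/FLAG mice and 3 wild-type mice without the tag, so that other cells of the testis contributed chromatin too.

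In a cycling cell, D cyclins accumulate in response to mitogens and activate CDK4 and CDK6, which phosphorylate RB family proteins and free E2F transcription factors. E2F targets include the E cyclin genes. Cyclin E with CDK2 starts DNA replication, CDC25A activates CDK2 by removing inhibitory phosphates, and p27 (the product of Cdkn1b) holds cyclin-CDK2 complexes inactive. Preleptotene cells replicate their DNA in premeiotic S phase before they enter meiotic prophase.

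Libraries held between 25049625 and 30015072 estimated counts. Stra8 itself followed the labels, with 18.0, 22.8 and 5.16 TPM (a level scaled to transcript length and to the size of the library) in the Stra8-deficient libraries, 315 and 236 TPM in the low-STRA8 libraries and 1099 and 1248 TPM in the high-STRA8 libraries. Of the 6 genes listed for germ cells of any stage, all but Dppa3 (0 to 4.16 TPM) were at 74.9 TPM or more in every library. The 6 summed to between 2778 and 5788 TPM. Tex101, a large part of the sum, stood at 563 and 714 TPM in low-STRA8 libraries and at 1636 to 2842 TPM in the others. The 10 genes listed for pachytene and later germ cells summed to between 2.06 and 5.12 TPM, with Adam3, Acr and Pgk2 at 0 throughout. All 12 Sertoli cell markers were over 1 TPM in some library, and their sum separated the low-STRA8 libraries, with 1025 TPM in replicate 1 and 235 TPM in replicate 2, against 711 to 1008 TPM in the Stra8-deficient and 955 and 1012 TPM in the high-STRA8 libraries. Sums were 6.96 to 32.7 TPM for the 7 Leydig cell markers, 20.2 to 60.4 TPM for the 10 peritubular and endothelial markers and 1.67 to 46.5 TPM for the 9 macrophage and blood markers. The 12 markers of undifferentiated spermatogonia summed to between 86.6 and 100 TPM in the Stra8-deficient libraries and to between 37.6 and 46.6 TPM in the other 4. Most of the Stra8-deficient sum came from Zbtb16, Foxo1, Sall4 and Lin28a, each higher in all Stra8-deficient libraries than in the other 4. Id4 was highest in high-STRA8 libraries, at 2.12 and 1.92 TPM against 0.679 to 1.23 TPM in Stra8-deficient ones. Gfra1, Nanos2 and Eomes stayed below 1 TPM throughout. The 7 markers of differentiating spermatogonia include Stra8, and the other 6 summed to between 1691 and 2030 TPM in Stra8-deficient libraries and to between 1491 and 1568 TPM in the other 4. Among them Dmrt1 was at 685 to 749 TPM in Stra8-deficient, 590 and 620 TPM in low-STRA8 and 508 and 490 TPM in high-STRA8 libraries. Sohlh1 and Dnmt3b had this order too, which is that of Ccnd1 below. Kit was lowest in low-STRA8 libraries, at 390 and 393 TPM. It stood at 454 to 711 TPM in Stra8-deficient and at 490 and 448 TPM in high-STRA8 libraries. Sohlh2 stood at 292 to 338 TPM in Stra8-deficient, 328 and 360 TPM in low-STRA8 and 293 and 273 TPM in high-STRA8 libraries. Prdm9 is a meiotic gene that, by the study, STRA8 upregulates, and it counts in the sum of the 6. It was at 21.2 to 29.7 TPM in Stra8-deficient and low-STRA8 libraries and at 132 and 158 TPM in high-STRA8 libraries. The part of these markers in the results below was not tested.

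STRA8 bound the promoters of 4 of the 10 genes, Ccne1, Ccne2, Cdk2 and Cdc25a, by the rule of a summit within 1 kb of a coding TSS (transcription start site) in at least 2 of 3 FLAG/FLAG libraries and in no wild-type library. The same rule called 22.5% of the tested genes. Promoter sequence from RefSeq (GRCm38.p6) was found for 7 of the 10 genes, and is shown for 3 of the bound ones because summits or motif matches lie in it. Capitals mark matches on either strand to CNCCTCAG, the motif associated with STRA8 peaks, or to an E2F motif (TTTCCCGC, TTTCGCGC, TTTGCCGC or TTTGGCGC), and each stretch, 5′ to 3′ on the strand of the gene, ends at the base before the first start site.
Ccne1 (chr7:38107535-38107740, minus strand): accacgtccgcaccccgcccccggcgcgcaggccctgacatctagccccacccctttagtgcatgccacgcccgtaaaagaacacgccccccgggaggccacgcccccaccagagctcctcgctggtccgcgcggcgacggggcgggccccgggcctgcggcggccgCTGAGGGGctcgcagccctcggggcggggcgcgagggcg
Cdk2 (chr10:128705052-128705301, minus strand): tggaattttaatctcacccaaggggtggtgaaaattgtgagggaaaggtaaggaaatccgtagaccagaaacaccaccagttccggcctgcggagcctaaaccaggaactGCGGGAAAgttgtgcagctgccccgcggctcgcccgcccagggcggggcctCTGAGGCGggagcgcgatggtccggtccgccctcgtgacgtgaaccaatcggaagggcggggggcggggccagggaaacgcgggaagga
Cdc25a (chr9:109875329-109875578, plus strand): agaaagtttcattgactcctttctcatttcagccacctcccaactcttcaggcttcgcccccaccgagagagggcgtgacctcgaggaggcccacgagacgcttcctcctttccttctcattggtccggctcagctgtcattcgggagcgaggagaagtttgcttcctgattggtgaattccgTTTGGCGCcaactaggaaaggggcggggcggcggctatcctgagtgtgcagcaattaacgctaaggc

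In the Ccne1 stretch the capitals CTGAGGGG are a match to the STRA8-associated motif on the opposite strand. In the Cdk2 stretch GCGGGAAA is an E2F motif and CTGAGGCG the STRA8-associated motif, both on the opposite strand. In the Cdc25a stretch TTTGGCGC is an E2F motif on the strand shown. Of 32851 promoters in the table, 6.42% held the STRA8-associated motif and 1.86% an E2F motif in the 250 bases before the start. These matches are a description of the letters and not of bound sites.

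Among the D cyclin genes, which respond to mitogens and supply the activators of CDK4 and CDK6, Ccnd1 was by far the most abundant. Its level was highest in Stra8-deficient and lowest in high-STRA8 libraries. Ccnd1 stood at 285, 287 and 254 TPM in the Stra8-deficient libraries, at 139 and 167 TPM in the low-STRA8 libraries and at 69.3 and 61.5 TPM in the high-STRA8 libraries. The 3 groups did not overlap, and the means were 276 ± 18.5 (SD, n = 3), 153 ± 19.7 (n = 2) and 65.4 ± 5.53 TPM (n = 2). Ccnd1 was 3.97-fold lower in high-STRA8 cells than in Stra8-deficient ones (log2 fold change -1.99 ± 0.13, SE, adjusted p = 6.15e-05, edgeR) and 2.53-fold lower than in low-STRA8 cells (-1.34 ± 0.14, adjusted p = 0.000639). It was also 1.57-fold lower in low-STRA8 than in Stra8-deficient cells (-0.65 ± 0.12, adjusted p = 0.00881, edgeR). The gene (ENSMUSG00000070348, mm10 chr7:144929931-144939925, minus strand) was measured through 1 transcript, and no FLAG summit lay within 1 kb of its TSS in any library.

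**Figure D1:**
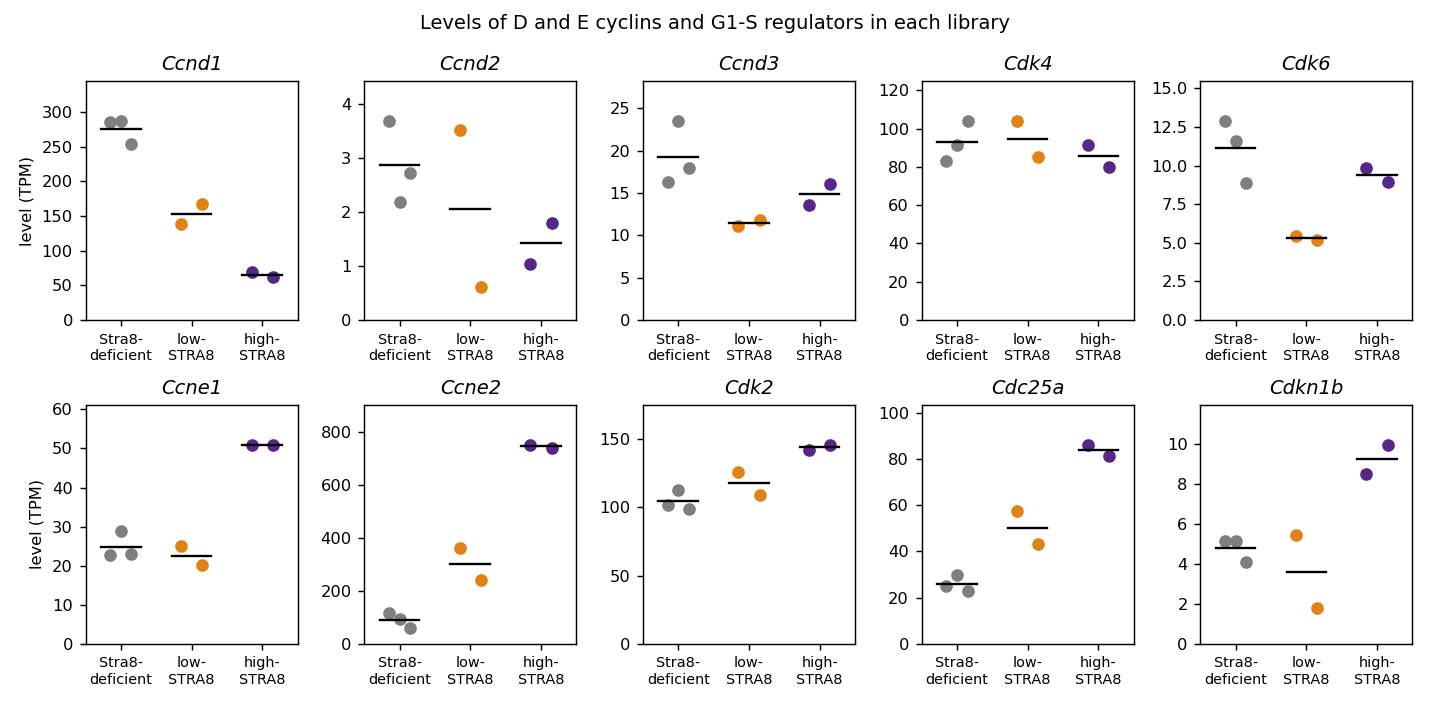
Level of each of the 10 genes in TPM (vertical axes from 0, a scale for each gene) in the libraries of the 3 groups. Points are libraries and bars are group means. Ccnd1 falls and Ccne2 and Cdc25a rise from left to right without overlap, Ccne1 is high in the high-STRA8 libraries alone, and the low-STRA8 points of Ccnd2 and Cdkn1b lie far apart.

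Neither of the other D cyclin genes passed the test in any comparison with all 7 libraries. Ccnd3 stood at 16.3, 23.5 and 17.9 TPM in Stra8-deficient, 11.1 and 11.8 TPM in low-STRA8 and 13.6 and 16.1 TPM in high-STRA8 libraries. These TPM ranges did not overlap. The log2 fold changes from counts were -0.19 ± 0.16 for high-STRA8 against Stra8-deficient (adjusted p = 0.388, edgeR), 0.32 ± 0.18 for high-STRA8 against low-STRA8 (adjusted p = 0.198) and -0.51 ± 0.17 for low-STRA8 against Stra8-deficient (adjusted p = 0.0572). The last of these passed the threshold with DESeq2 and with limma on TPM. Ccnd2 was scarce, at 3.68, 2.18 and 2.72 TPM in Stra8-deficient, 3.51 and 0.605 TPM in low-STRA8 and 1.04 and 1.79 TPM in high-STRA8 libraries. Low-STRA8 replicate 2 was the lowest of the 7 and replicate 1 among the highest. Their summed Sertoli markers differed as well (235 TPM in replicate 2 and 1025 TPM in replicate 1). Whether Sertoli cell RNA had a part in the Ccnd2 values was not tested. Its log2 fold changes had SEs between 0.59 and 0.66, and without low-STRA8 replicate 1 the value for high-STRA8 against low-STRA8 changed from -0.61 to 1.09, which did not pass the test. Without low-STRA8 replicate 2 it was -1.36 and was called lower (adjusted p = 0.0311, edgeR), and without replicate 1 Ccnd2 was called lower in low-STRA8 than in Stra8-deficient cells (-1.95, adjusted p = 0.0265).

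The makeup of the D cyclin transcripts differed between groups. Ccnd1 made up 93.4%, 91.8% and 92.5% of the summed D cyclin TPM in the Stra8-deficient libraries, 90.5% and 93.1% in the low-STRA8 libraries and 82.6% and 77.5% in the high-STRA8 libraries. Ccnd3 took 5.35% to 7.51%, 6.59% to 7.26% and 16.2% to 20.3% of the sum in the same groups. Shares within a library do not depend on how libraries are scaled. Between the high-STRA8 group and the other 5 libraries neither share overlapped.

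The kinase genes that pair with D cyclins did not follow Ccnd1. Cdk4 was at 83.3, 91.2 and 104 TPM in Stra8-deficient, 104 and 85.1 TPM in low-STRA8 and 91.2 and 79.7 TPM in high-STRA8 libraries. The 3 groups overlapped, and no comparison passed the test. The log2 fold change of Cdk4 was 0.026 ± 0.13 for high-STRA8 against Stra8-deficient (adjusted p = 0.888, edgeR) and turned negative with a length offset, with limma and in 2 of the fits with a library left out. Cdk6 had its lowest values in the low-STRA8 libraries: it stood at 12.9, 11.6 and 8.85 TPM in Stra8-deficient, 5.47 and 5.17 TPM in low-STRA8 and 9.83 and 8.94 TPM in high-STRA8 libraries. The low-STRA8 libraries lay below the other 5. Cdk6 was 1.96-fold lower in low-STRA8 than in Stra8-deficient cells (log2 fold change -0.97 ± 0.19, adjusted p = 0.00905, edgeR) and 1.76-fold higher in high-STRA8 than in low-STRA8 cells (0.82 ± 0.20, adjusted p = 0.0133). The second call was lost without low-STRA8 replicate 2 and without either high-STRA8 library. High-STRA8 and Stra8-deficient cells overlapped in Cdk6 (log2 fold change -0.16 ± 0.18, adjusted p = 0.531, edgeR). Cdk4 made up between 86.6% and 95.0% of the summed Cdk4 and Cdk6 TPM in all 7 libraries, and that sum was 104 ± 8.17, 99.7 ± 13.4 and 94.8 ± 8.73 TPM in the groups without STRA8, with low STRA8 and with high STRA8.

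E cyclin genes, whose products bind CDK2 and bring cells into S phase, went the other way from Ccnd1. Ccne2 stood at 118, 94.6 and 58.9 TPM in Stra8-deficient, 362 and 241 TPM in low-STRA8 and 754 and 740 TPM in high-STRA8 libraries. No library of a group overlapped another group. Ccne2 was 8.81-fold higher in high-STRA8 cells than in Stra8-deficient ones (log2 fold change 3.14 ± 0.25, adjusted p = 9.8e-05, edgeR), 3.8-fold higher in low-STRA8 than in Stra8-deficient cells (1.92 ± 0.25, adjusted p = 0.00246) and 2.32-fold higher in high-STRA8 than in low-STRA8 cells (1.22 ± 0.27, adjusted p = 0.00994). The last call was lost when either high-STRA8 library was left out (log2 fold changes of the left-out fits from 0.97 to 1.5). Ccne1 did not share the intermediate level of Ccne2 in low-STRA8 cells. It stood at 22.7, 28.8 and 23.0 TPM in Stra8-deficient, 24.9 and 20.1 TPM in low-STRA8 and 51.0 and 50.9 TPM in high-STRA8 libraries. The high-STRA8 libraries were above the other 5, which overlapped. Ccne1 was 2.16-fold higher in high-STRA8 cells than in Stra8-deficient ones (log2 fold change 1.11 ± 0.14, adjusted p = 0.000623, edgeR) and 2.08-fold higher than in low-STRA8 cells (1.06 ± 0.16, adjusted p = 0.00198). Between low-STRA8 and Stra8-deficient cells its log2 fold change was 0.053 ± 0.14 (adjusted p = 0.819, edgeR), and limma on TPM gave the opposite sign.

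**Figure D2:**
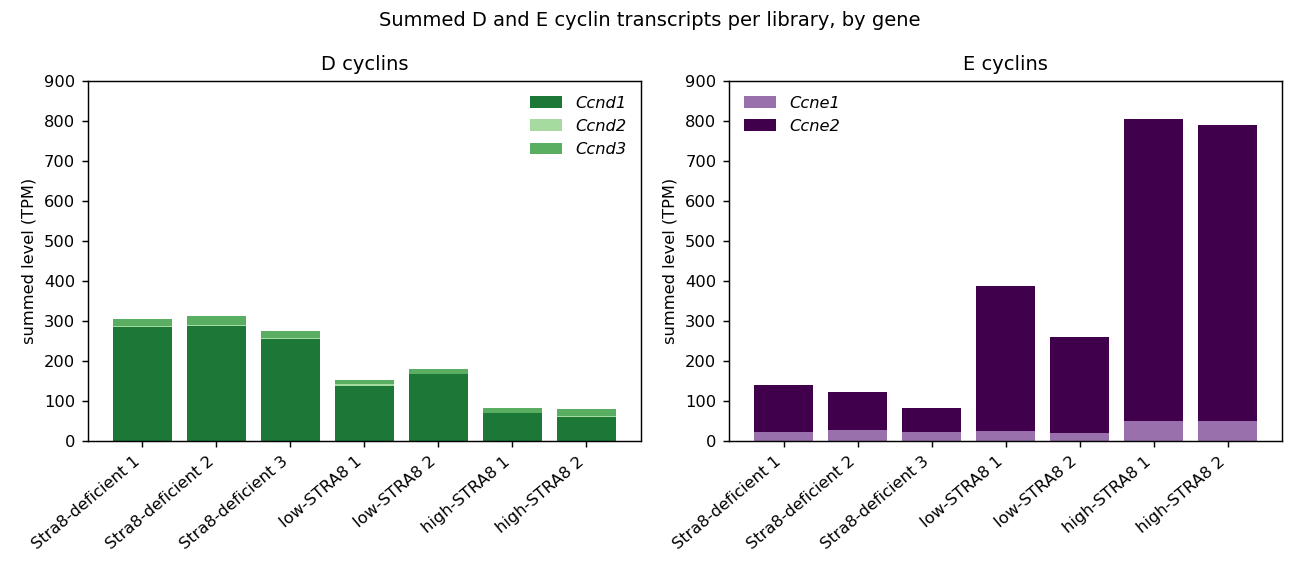
Summed TPM of the 3 D cyclin genes (left) and the 2 E cyclin genes (right) in each of the 7 libraries, as bars from 0 on one scale, with colours for the genes. D cyclin bars are almost all Ccnd1 and drop from 305, 313 and 275 TPM to 84.0 and 79.4 TPM, while E cyclin bars are mostly Ccne2 and climb from 141, 123 and 81.9 TPM to 805 and 791 TPM.

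The balance of D to E cyclin transcripts was inverted. The summed D cyclin TPM was 2.17, 2.54 and 3.36 times the summed E cyclin TPM in the Stra8-deficient libraries, 0.397 and 0.687 times in the low-STRA8 libraries and 0.104 and 0.1 times in the high-STRA8 libraries. In other words, E cyclins made up 31.6%, 28.3% and 22.9% of the D and E cyclin transcripts in Stra8-deficient, 71.6% and 59.3% in low-STRA8 and 90.6% and 90.9% in high-STRA8 libraries. The 3 groups did not overlap. Within the E cyclins, Ccne2 took 83.9%, 76.7% and 71.9% of the sum in the Stra8-deficient libraries and between 92.3% and 93.7% in the other 4.

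Cdk2, the kinase gene of the E cyclins, differed less. It stood at 102, 113 and 98.9 TPM in Stra8-deficient, 126 and 109 TPM in low-STRA8 and 142 and 146 TPM in high-STRA8 libraries. High-STRA8 libraries lay above all the others, and low-STRA8 and Stra8-deficient libraries overlapped. Cdk2 was 1.47-fold higher in high-STRA8 cells than in Stra8-deficient ones (log2 fold change 0.56 ± 0.093, adjusted p = 0.00228, edgeR). Between high-STRA8 and low-STRA8 cells it did not pass the test (0.20 ± 0.10, adjusted p = 0.148, edgeR). It was called 1.28-fold higher in low-STRA8 than in Stra8-deficient cells (0.36 ± 0.093, adjusted p = 0.027, edgeR), a call kept by 9 of 17 alternatives. Cdk2 made up 51.4%, 52.5% and 46.8% of the summed TPM of Cdk2, Cdk4 and Cdk6 in Stra8-deficient, 53.5% and 54.7% in low-STRA8 and 58.4% and 62.2% in high-STRA8 libraries.

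Cdc25a, which encodes the phosphatase that activates CDK2, was also highest in high-STRA8 and lowest in Stra8-deficient cells. It stood at 25.2, 29.7 and 22.8 TPM in Stra8-deficient, 57.5 and 43.1 TPM in low-STRA8 and 86.3 and 81.3 TPM in high-STRA8 libraries. The groups did not overlap. Cdc25a was 3.45-fold higher in high-STRA8 cells than in Stra8-deficient ones (log2 fold change 1.79 ± 0.13, adjusted p = 7.81e-05, edgeR), 2.22-fold higher in low-STRA8 than in Stra8-deficient cells (1.15 ± 0.13, adjusted p = 0.00199) and 1.56-fold higher in high-STRA8 than in low-STRA8 cells (0.64 ± 0.15, adjusted p = 0.0113). The last call was lost without low-STRA8 replicate 2 and without either high-STRA8 library.

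Cdkn1b, the gene of the CDK inhibitor p27, was expressed at few TPM and had its highest values in the high-STRA8 libraries. It stood at 5.12, 5.13 and 4.1 TPM in Stra8-deficient, 5.42 and 1.8 TPM in low-STRA8 and 8.52 and 9.97 TPM in high-STRA8 libraries. High-STRA8 libraries lay above the rest, and the low-STRA8 libraries lay on either side of the Stra8-deficient ones. Cdkn1b was called 2.38-fold higher in high-STRA8 than in low-STRA8 cells at the edge of the threshold (log2 fold change 1.25 ± 0.43, adjusted p = 0.0493, edgeR), and 9 of 17 alternatives kept the call. Left-out fits gave log2 values from 0.69 without low-STRA8 replicate 2 to 2.20 without low-STRA8 replicate 1, the libraries whose Sertoli markers summed to 235 and 1025 TPM. The part of Sertoli cell RNA in the Cdkn1b values was not tested. Against Stra8-deficient cells the log2 fold change was 1.04 ± 0.38 (adjusted p = 0.0635, edgeR), which passed the threshold with DESeq2, with the 2 groups fitted alone and without either low-STRA8 library.

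**Figure D3:**
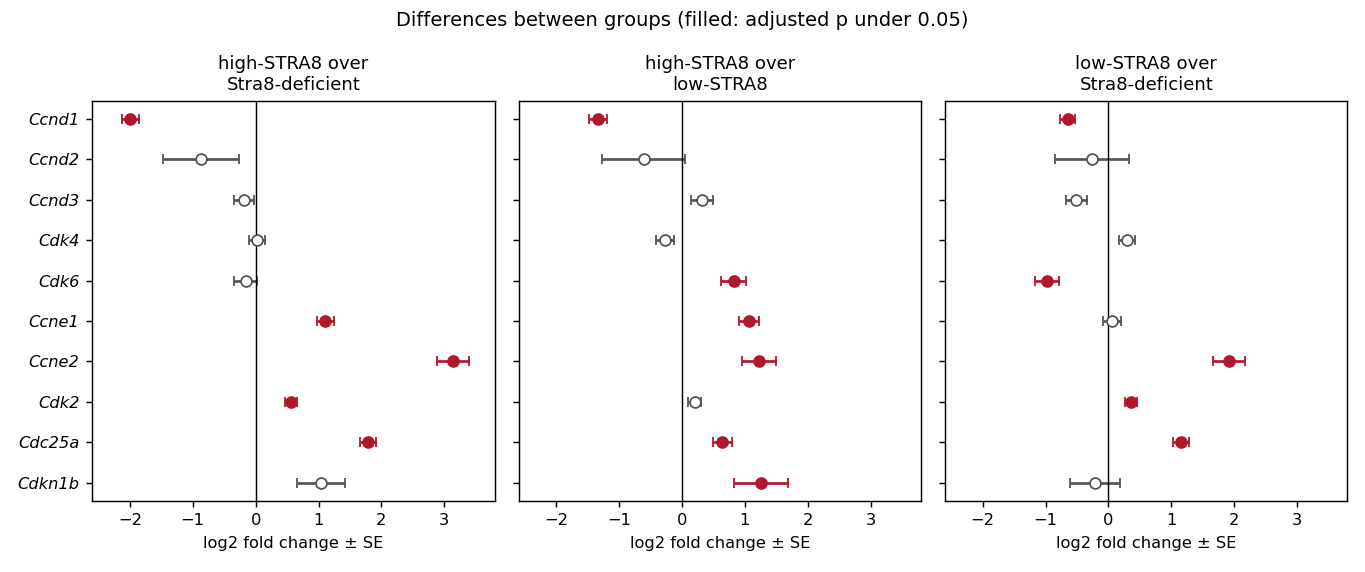
Log2 fold change (horizontal axis, with its SE as a bar) of the 10 genes in the 3 comparisons, from edgeR. Filled red points have an adjusted p under 0.05. Ccnd1 lies left of 0 in all 3 panels, Ccne2 and Cdc25a right of 0 in all 3, and Cdk6 on opposite sides in the comparisons of high-STRA8 with low-STRA8 and of low-STRA8 with Stra8-deficient cells.

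Counted together, 4 of the 10 genes were higher in high-STRA8 cells than in Stra8-deficient ones (Ccne1, Ccne2, Cdk2 and Cdc25a) and 1 was lower (Ccnd1), where 18.8% of all tested genes were higher and 18.3% lower. Between high-STRA8 and low-STRA8 cells, 5 were higher (Cdk6, Ccne1, Ccne2, Cdc25a and Cdkn1b) and 1 lower (Ccnd1), where 21.4% of all tested genes were higher and 18.3% lower. Without either high-STRA8 library, where 1 library stood for the group, the calls of Ccnd1 and Ccne1 alone were kept. Calls over all tested genes fell in these fits as well. Without high-STRA8 replicate 1 or 2, log2 fold changes were 0.73 and 0.90 for Cdk6 and 1.21 and 1.22 for Ccne2. They were 0.60 and 0.68 for Cdc25a and 1.38 and 1.12 for Cdkn1b. Between low-STRA8 and Stra8-deficient cells, 3 were higher (Ccne2, Cdk2 and Cdc25a) and 2 lower (Ccnd1 and Cdk6), where 10.2% of all tested genes were higher and 13.9% lower. With limma on log2(TPM + 1) in place of edgeR, the share of calls over all genes that were higher went from 50.8% to 40.5% for high-STRA8 against Stra8-deficient, from 53.9% to 63.6% for high-STRA8 against low-STRA8 and from 42.3% to 15.5% for low-STRA8 against Stra8-deficient. The median log2 fold change of the 10 genes was 0.29, 0.48 and -0.079 in these comparisons, beside -0.017, 0.0041 and 0.025 over all tested genes. The 3 comparisons share libraries in pairs and are not independent. In sorted cells measured in bulk, a larger share of cells at one step of the cell cycle and a higher level in each cell cannot be told apart.

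The order of levels changed with the group. In Stra8-deficient cells Ccnd1 (276 TPM) came first, followed by Cdk2, Cdk4 and Ccne2 (105, 92.7 and 90.6 TPM), of which neighbours overlapped. Cdc25a, Ccne1 and Ccnd3 (25.9, 24.8 and 19.2 TPM) followed, again overlapping, and then Cdk6 (11.1 TPM), Cdkn1b (4.78 TPM) and Ccnd2 (2.86 TPM). In low-STRA8 cells Ccne2 (302 TPM) was ahead of Ccnd1 (153 TPM) and Cdk2 (117 TPM), with no overlap between neighbours down to Cdk6, while Cdk6, Cdkn1b and Ccnd2 overlapped as neighbours. In high-STRA8 cells Ccne2 (747 TPM) was followed by Cdk2 (144 TPM), and Ccnd1 (65.4 TPM) had become the fifth, behind Cdk4 and Cdc25a (85.5 and 83.8 TPM), which overlapped. Cdk6 and Cdkn1b (9.38 and 9.25 TPM) overlapped as well. The 10 genes summed to 652 ± 50.1 TPM (SD, n = 3), 761 ± 109 TPM (n = 2) and 1211 ± 21.3 TPM (n = 2) in the 3 groups.

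Ccnd1, Ccnd2, Ccne1 and Cdc25a, 4 of the 10 genes, had 1 transcript over 1 TPM, and the other 6 had 2 to 5. Ccnd1 and Ccne1 had 1 measured transcript each, and 1 transcript held at least 99.9% of Cdc25a and at least 93.0% of Ccnd2 in every library. Cdk4 was split between ENSMUST00000006911, with 57.5% to 71.5% of its TPM, and ENSMUST00000120226, with 28.5% to 42.5%. The main transcript of Ccnd3 (ENSMUST00000182209) held 46.2% to 70.8%, that of Cdk6 (ENSMUST00000165117) 83.0% to 100% and that of Cdkn1b (ENSMUST00000003115) 63.5% to 94.5%. Cdk2 was split between a transcript of 2240 bases (ENSMUST00000026415) and one of 2406 bases (ENSMUST00000026416). The longer took 26.1%, 17.3% and 25.7% of Cdk2 in Stra8-deficient, 21.6% and 25.5% in low-STRA8 and 28.6% and 36.7% in high-STRA8 libraries, a higher share in both high-STRA8 libraries than in the other 5. Ccne2 was split between 2 transcripts of 3006 bases each, and their shares were unsteady between replicates: ENSMUST00000170901 took 36.1%, 44.5% and 61.8% in Stra8-deficient, 64.1% and 53.5% in low-STRA8 and 55.0% and 78.1% in high-STRA8 libraries. The sum for Ccne2 differed far less between the high-STRA8 replicates, at 754 and 740 TPM. Reads of 40 bases rarely tell such transcripts apart, so that these shares are kallisto's estimates.

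STRA8 summits were strongest at Ccne2 (ENSMUSG00000028212, mm10 chr4:11191351-11204779, plus strand). Scores, which are -log10 of the MACS2 p, reached 147, 52.0 and 132 in the 3 FLAG/FLAG libraries at -49, 121 and -184 bases from the nearest coding TSS, where a negative distance is upstream. These summits lay in an intron, in an exon and upstream of every coding transcript, as the start sites of Ccne2 are staggered, and replicates 2 and 3 had a second, weaker summit further upstream (scores 10.6 and 10). Cdc25a (ENSMUSG00000032477, chr9:109875579-109893895, plus strand) had a summit in all 3 FLAG/FLAG libraries, with scores of 30.7, 35.0 and 13.0 at distances of -133, -202 and -33 from the TSS. All 3 fall in the sequence printed above, where the E2F motif is 31 bases from the nearest summit.

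Ccne1 and Cdk2 were bound in 2 of 3 libraries each. Ccne1 (ENSMUSG00000002068, chr7:38097984-38107534, minus strand) had a summit with a score of 20.3 at -119 in replicate 1 and 2 summits, with scores of 11.2 and 10.7 at 286 (in an intron) and -364, in replicate 2. Its STRA8-associated motif is 84 bases from the nearest summit and at -35 from the start. Cdk2 (ENSMUSG00000025358, chr10:128697939-128705031, minus strand) had summits at 53 and 103, in an exon and downstream of the printed stretch, with scores of 20.1 in replicate 1 and 5.95 in replicate 3. The second is the lowest score among the 10 genes, and Cdk2 was not bound when a score of at least 10 was required. Without FLAG/FLAG replicate 1, Ccne2 and Cdc25a alone of the 10 genes were bound, beside 12.1% of tested genes. No other coding gene had a TSS within 1 kb of these summits.

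**Figure D4:**
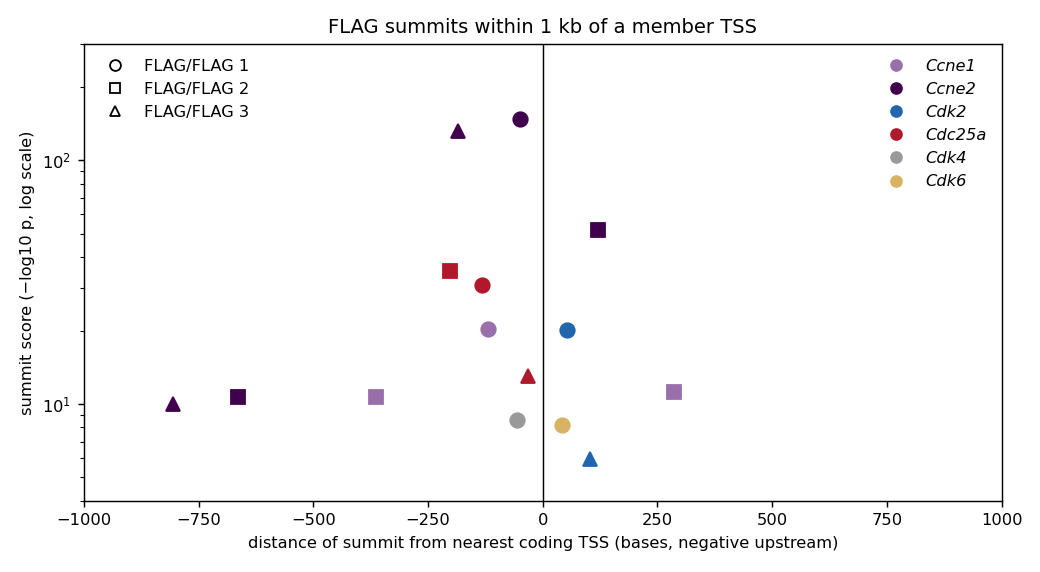
Distance of each FLAG summit from the nearest coding TSS (horizontal axis, bases, negative upstream) and its score (vertical axis, -log10 p on a log scale) for the 6 genes with a summit within 1 kb, with colours for genes and symbols for the 3 FLAG/FLAG libraries. The Ccne2 points with scores of 147, 52.0 and 132 lie above all other genes, and Cdk4 and Cdk6 have 1 point each, from replicate 1. No wild-type summit lay in these windows.

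The D cyclin side was not bound by this rule. Cdk4 (chr10:127063534-127067920, plus strand) and Cdk6 (chr5:3341485-3531008, plus strand) had 1 summit each, in FLAG/FLAG replicate 1 alone, with scores of 8.55 at -57 and 8.21 at 41, and 16% of the tested genes likewise had a summit in 1 of 3 libraries. Ccnd1, Ccnd2, Ccnd3 and Cdkn1b had no summit in any FLAG/FLAG library within 1 kb, as had 61.1% of the tested genes. The FLAG/FLAG libraries held 5687, 3299 and 2035 summits and the wild-type libraries 798, 45 and 164, so that a missing summit in replicates 2 and 3 rests on fewer calls. All 4 bound genes were among those called higher for high-STRA8 against Stra8-deficient, where 47.6% of 2767 bound and tested gene symbols were higher and 5.64% lower, beside 18.8% and 18.3% of all tested genes. Ccnd1, the 1 gene called lower, was without a summit.

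In the 2 kb around their start sites, 8 of the 10 genes held the STRA8-associated motif, all but Cdk6 and Cdkn1b, beside 46.6% of tested genes and 61.8% of bound ones. Ccne2 held 2 matches and Ccnd1, Ccnd2, Ccnd3, Cdk4, Ccne1, Cdk2 and Cdc25a 1 each in the window with the most. The match of Ccnd1 was at -154 from its start and that of Ccnd2 at -12, with no summit at either. That of Cdc25a was at 909 from the nearest of its start sites and 1669 bases from the nearest summit. At Ccne1, Ccne2 and Cdk2 the nearest match lay 84, 125 and 186 bases from a summit. Over all summits of FLAG/FLAG replicates 1, 2 and 3, 9.65%, 13.9% and 15.5% had a match in the 100 bases around them. An E2F motif was found at Ccnd3, Ccne2, Cdk2 and Cdc25a, beside 16% of tested genes and 22.5% of bound ones.

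The other genes of the G1-S pathway, a list of 49 of which 46 were tested, moved in both directions. Of the 46, 17 were higher and 10 lower when high-STRA8 cells were compared with Stra8-deficient cells, 11 higher and 9 lower for high-STRA8 against low-STRA8 cells, and 10 higher and 5 lower for low-STRA8 against Stra8-deficient cells, with medians of 0.07, 0.12 and 0.10 on the log2 scale. Over all tested genes the shares called higher and lower were 18.8% and 18.3%, 21.4% and 18.3%, and 10.2% and 13.9% in these comparisons, against which the counts of the roles below are also to be read. Among RB and E2F genes, 7 of 13 were higher in high-STRA8 cells than in Stra8-deficient ones (E2f1, E2f4, E2f7, E2f8, Rbl1, Rbl2 and Tfdp2) and 3 lower (E2f3, E2f5 and E2f6). E2f1, an activator of S phase genes, was at 33.5, 50.9 and 30.8 TPM in Stra8-deficient, 62.3 and 46.0 TPM in low-STRA8 and 109 and 106 TPM in high-STRA8 libraries (log2 fold change of high-STRA8 over Stra8-deficient 1.56 ± 0.20, adjusted p = 0.000694, edgeR). E2f4, which encodes a partner of RB family proteins in repression, and the repressor gene E2f8 had log2 fold changes of 0.78 ± 0.10 (adjusted p = 0.000623, edgeR) and 2.45 ± 0.33 (adjusted p = 0.000806), E2f8 from levels below 1 TPM.

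Of the other cyclins, kinases and CDK2 activators, 2 of 3 tested were higher in high-STRA8 cells than in Stra8-deficient ones. Spdya encodes Speedy A, a protein unrelated to cyclins that activates CDK2. It stood at 7.82, 6.54 and 6.36 TPM in Stra8-deficient, 22.9 and 11.8 TPM in low-STRA8 and 75.2 and 82.5 TPM in high-STRA8 libraries, without overlap, and passed the test in all 3 comparisons (log2 fold changes 3.58 for high-STRA8 against Stra8-deficient, 2.07 for high-STRA8 against low-STRA8 and 1.51 for low-STRA8 against Stra8-deficient, adjusted p = 6.63e-05, 0.00123 and 0.00489, edgeR). The S phase cyclin gene Ccna2 was close to the threshold (0.41 ± 0.14, adjusted p = 0.0489, edgeR), and Cdk1 did not pass (0.42 ± 0.21, adjusted p = 0.151). Among the kinases and phosphatases of the inhibitory CDK phosphorylation, 2 of 4 were higher and 1 lower. The inhibitory kinase genes Wee1 and Pkmyt1 had log2 fold changes of 0.96 ± 0.13 (adjusted p = 0.000785, edgeR) and 0.80 ± 0.23 (adjusted p = 0.0249). Cdc25c, a relative of Cdc25a that acts at entry into M phase, went the other way from Cdc25a: it stood at 8.75, 7.46 and 9.47 TPM in Stra8-deficient, 4.34 and 2.99 TPM in low-STRA8 and 1.49 and 1.43 TPM in high-STRA8 libraries (log2 fold change of high-STRA8 over Stra8-deficient -2.47 ± 0.28, adjusted p = 0.000386, edgeR).

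Of the 6 other CDK inhibitors, 3 were higher in high-STRA8 cells than in Stra8-deficient ones: Cdkn2c (log2 fold change 1.0 ± 0.17, adjusted p = 0.00289, edgeR), Cdkn2a (0.57 ± 0.11, adjusted p = 0.00419) and Cdkn1a (0.67 ± 0.21, adjusted p = 0.0336). Cdkn2c encodes an inhibitor of CDK4 and CDK6, and Cdkn2a encodes such an inhibitor among its products, which were not told apart here. Cdkn1a encodes p21, a relative of p27. Cdkn2c stood at 39.2 and 28.3 TPM in low-STRA8, 38.0 and 38.1 TPM in high-STRA8 and 15.5 to 23.6 TPM in Stra8-deficient libraries. Low-STRA8 replicate 1 was thus near the high-STRA8 values, and replicate 2 lay between the other groups. High-STRA8 against low-STRA8 did not pass the test (log2 fold change -0.022, adjusted p = 0.942, edgeR). Low-STRA8 against Stra8-deficient did (1.02, adjusted p = 0.00612, edgeR). Among the 11 ubiquitin ligases and adaptors that turn over D and E cyclins or p27, 2 were higher and 4 lower. Cul1, the scaffold of SCF ligases, rose (log2 fold change 1.12 ± 0.091, adjusted p = 0.000104, edgeR), while Fbxo31, an F-box gene, and Cks2, a small CDK-binding protein gene, fell (-0.69 ± 0.11 and -0.83 ± 0.13, adjusted p = 0.00175 and 0.00204, edgeR). Of the CDK-activating kinase genes, Cdk7 was lower (-0.46 ± 0.11, adjusted p = 0.0117, edgeR), and Mnat1 and Ccnh had log2 fold changes of 0.059 ± 0.14 and 0.031 ± 0.10 (adjusted p = 0.776 and 0.83). Among 6 tested genes upstream of or bound to G1 cyclins, Mycn was higher (0.58 ± 0.15, adjusted p = 0.0156, edgeR) and Cables1 lower (-1.06 ± 0.30, adjusted p = 0.0249), while Cables2 had a value of -0.24 ± 0.087 (adjusted p = 0.0565).

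Genes whose profile over the 7 libraries was nearest to each of the 10 were found by the root-mean-square difference of centred log2(TPM + 1), among 9580 genes averaging at least 5 TPM. For Ccnd1 the nearest was Mvd (a difference of 0.135, where Ccnd1 spans 2.21), which stood at 22.4 to 25.9 TPM in Stra8-deficient and 4.97 and 5.28 TPM in high-STRA8 libraries. For Ccne2, which spans 3.66 and had the least close neighbours, they were Zfp367 and Rrm2 (0.248 and 0.26), and Rrm2 stood at 79.3 to 114 TPM in Stra8-deficient, 352 and 214 TPM in low-STRA8 and 642 and 611 TPM in high-STRA8 libraries. For Ccne1 they were Vars and Ccdc181 (0.0575 and 0.0623), for Cdc25a Slc2a4 and Aunip (0.0812 and 0.0818), and for Cdk2 Snx11 and Anapc5 (0.0419 and 0.0489). For Cdk4 they were Zbtb8os and Ap1s1 (0.0411 and 0.0556), for Cdk6 Dbn1 and Usp24 (0.0715 and 0.075) and for Ccnd3 Efemp2 and Limk1 (0.0832 and 0.0931). For Cdkn1b they were Rassf2 and Sh3bgr (0.16 and 0.167), and for Ccnd2 Camkk2 and Rasl10a (0.187 and 0.2). All 4 were lower in low-STRA8 replicate 2 than in replicate 1, which follows from their choice by likeness to Cdkn1b and Ccnd2. Pairs of profiles share their libraries, so that these differences describe likeness and no more.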

How the data were processed

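RNA was measured in 7 libraries of sorted preleptotene cells (3 Stra8-deficient, 2 low-STRA8 and 2 high-STRA8) and STRA8 binding in 6 FLAG ChIP-seq libraries (3 FLAG/FLAG and 3 wild-type), grouped by their titles. Poly(A) RNA was made into libraries with a stranded kit, pooled and sequenced as 40-base single reads. The authors estimated transcript counts and TPM with kallisto 0.43.0 on mm10 transcripts, and the deposited expected counts and TPM of each transcript were used here. The authors also deposited a TPM for each protein-coding gene and a normalized count, which is a signal from DESeq2 1.18.1 that is no longer a count. For ChIP-seq the authors aligned reads with Bowtie 1.2.0, called peaks with MACS2 2.1.1.20160309 at p of 1e-05 against inputs, and deposited summits scored as -log10 p, for each library on its own. Each FLAG/FLAG library was processed alongside a wild-type one, and replicate 3 was made with another kit.

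Of 75737 transcripts, 75554 were matched to GENCODE M21. Counts were summed by gene (12225 of the tested genes by symbol, 116 by RefSeq synonym, 97 by all transcripts of the symbol and 24 by summed TPM) and rounded. Between 90.07% and 92.77% of a library's counts lay on joined genes. Genes over 1 TPM in at least 1 library were tested, 12462 in all, and 83 more had no counts. edgeR 4.0.16 (TMM, robust quasi-likelihood F test, R 4.3.3) was fitted to all 7 libraries with 4 residual degrees of freedom, and p-values were adjusted by Benjamini-Hochberg over all tested genes at a threshold of 0.05. The biological coefficient of variation was 0.173. Replicates differed by 9.11 to 37.7 times the sampling noise (chi-square per degree of freedom), so none was counted as a repeat of another. The RNA-seq replicates were called biological by the study, but whether a library held 1 mouse was not given in the sources used here, and p-values measure the spread between these libraries. Alternatives were DESeq2 1.42.0, limma 3.58.1 on log2(TPM + 1), log2(TPM + 0.1) or log2(normalized count + 1), other size factors, no filter, a length offset, 2 groups alone, a replicate block and each library left out.

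The 10 genes and the lists of pathway genes and markers were chosen with earlier results of these data known. Named beside the 10 are Stra8, up to 3 genes of each role in the pathway with the smallest adjusted p for high-STRA8 against Stra8-deficient, genes called in the RB and E2F role, and the 2 genes nearest in profile to each of the 10, of which 1 is not reported here. The RB and E2F genes beyond 3 were named after their values were seen. The input libraries were not used.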

Additional observations from a re-analysis of the deposited data

Results flagged for a closer look

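Signal in the FLAG/FLAG ChIP-seq libraries outside the promoter windows of the 10 genes, with none in the wild-type libraries there, was seen near Cdk2 and Ccnd3. Beyond the 3′ end of Cdk2, FLAG/FLAG replicates 1 and 2 had a summit with scores (-log10 p) of 14.7 and 23.7, at 8957 and 9024 bases from the Cdk2 TSS, and both lay within 1 kb of a TSS of the neighbouring gene Rab5b. FLAG/FLAG replicate 2 had a summit with a score of 7.89 at -3108 bases from the Ccnd3 TSS, where negative is upstream, within 1 kb of a TSS of the neighbouring gene Taf8. These summits were assigned to none of the 10 genes. No group of RNA-seq libraries had the 4 samples needed to test for an outlying one.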

How the results depend on the processing

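Of 510 fold changes of the 10 genes under the 17 alternatives for each of 3 comparisons, 463 kept their direction and side of the threshold, 24 lost a call, 10 gained one and 13 changed sign, all 13 among values that had not passed the test. The calls of Ccnd1 in all 3 comparisons, of Ccne1, Ccne2, Cdk2 and Cdc25a for high-STRA8 against Stra8-deficient, of Ccne1 for high-STRA8 against low-STRA8 and of Ccne2, Cdc25a and Cdk6 for low-STRA8 against Stra8-deficient held in all 17. Leaving out 1 library gave 5 to 6 genes called for high-STRA8 against Stra8-deficient, 2 to 6 for high-STRA8 against low-STRA8 (2 without either high-STRA8 library, where 1 library stands for the group and is assumed to vary like the others) and 4 to 6 for low-STRA8 against Stra8-deficient, and all other settings gave 5 to 6, 5 to 6 and 4 to 6. The replicate block called 5, 5 and 4 genes, losing Cdkn1b for high-STRA8 against low-STRA8 and Cdk2 for low-STRA8 against Stra8-deficient. Same-numbered libraries correlated from -0.165 to -0.0281 in their deviations from the group means, so the numbers were not taken to pair them. Differently numbered ones correlated from -0.025 to 0.165. In a group of 2 libraries the deviations mirror each other. A negative value with 1 of them therefore fixes an equal positive value with the other. With the numbers of the low-STRA8 libraries exchanged, an alternative chosen after seeing the data, the block called 5, 6 and 5 genes.

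Among the sign changes, the log2 fold change of Cdk4 for high-STRA8 against Stra8-deficient (0.026) became -0.036 with the length offset, -0.11 with limma on TPM at either pseudocount and -0.026 with limma on normalized counts, and ranged from -0.061 to 0.10 with 1 library left out. That of Ccne1 for low-STRA8 against Stra8-deficient (0.053) became -0.14 with limma on TPM at either pseudocount and ranged from -0.062 to 0.17, with -0.025 without Stra8-deficient replicate 1. Without low-STRA8 replicate 1, Ccnd2 for high-STRA8 against low-STRA8 became 1.09 (range from -1.36), and without replicate 2, Ccnd2 and Cdkn1b for low-STRA8 against Stra8-deficient became 0.49 and 0.35 (ranges from -1.95 and -1.16, where without low-STRA8 replicate 1 both were called lower). With limma on TPM the median of all genes for low-STRA8 against Stra8-deficient was -0.153, and 0.11 for high-STRA8 against low-STRA8. Calls over all genes fell from 4624 to 2408 and 2057 for high-STRA8 against Stra8-deficient, and from 4938 to 2600 and 1745 for high-STRA8 against low-STRA8, without high-STRA8 replicate 1 or 2. For low-STRA8 against Stra8-deficient, 2995 calls became 1786 with the 2 groups alone, 1694 without Stra8-deficient replicate 2 and 1935 and 1948 without high-STRA8 replicate 1 or 2. Of the 10 genes, STRA8 bound 4 with windows of 0.5 or 2 kb, beside 21.2% and 23% of tested genes. It bound 6 with a summit needed in 1 library (38.4% of tested genes) and 2 with one needed in all 3 (11.9%). With a score of at least 10 it bound 3 (18.1%). Leaving out FLAG/FLAG replicate 1, 2 or 3 gave 2, 3 and 3 of the 10 (12.1%, 13.2% and 21% of tested genes). The causes of these changes were not tested.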
